A study of Mus musculus with 12 samples.

Results

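The comparison set 3 arrays of a 4T1 line with the Mkl1 construct ΔSAP against 3 arrays of a line with the construct mutB1, 6 of the 12 arrays of the series. Members were the probe sets with a mean log2 value of at least 4 over the 12 arrays, 30212 of 34760. The remaining arrays, 3 of a control line and 3 of a line named FL, served as reference. 4T1 is a mouse mammary carcinoma cell line, here labelled as mammary epithelial carcinoma of BALB/cfC3H background. Per the labels, all 4 stable lines were grown for 48 h in DMEM with 0.03% FCS, so every group was serum-starved. The control is named only as such, FL is read as full-length Mkl1, mutB1 as Mkl1 with a mutated B1 region, and ΔSAP as Mkl1 without the SAP domain. Vectors, promoters and the choice of pool or clone for each line were not stated in the labels. Each construct is represented by a single stable line, so construct and line cannot be told apart. The 3 arrays of a line came from triplicate cultures. The p-values rest on the spread between cultures within lines, pooled over the 4 lines and moderated over probe sets by limma.

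Mkl1, now named Mrtfa, is an actin-regulated coactivator that binds serum response factor (Srf) through its B1 region and with it switches on cytoskeletal and immediate early genes at CArG boxes. Its SAP domain is thought to contact DNA. Epithelial cells are held together by desmosomes, adherens junctions and tight junctions, which carry desmoplakin, E-cadherin, occludin and claudins and are anchored to keratin or actin filaments. In epithelial-mesenchymal transition these genes fall, and repressors of the Snail and Zeb families are known to bind E-box sequences in the promoters of several of them.

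Levels are log2 values from RMA, and a difference of 1 is a doubling. Array medians lay between 6.35 and 6.45. A line whose mean was under 6.35 is called low, since its signal may be background and a fold against it is only the measured one. Arrays correlated at r = 0.996 to 0.996 within ΔSAP, at 0.996 to 0.997 within mutB1 and at 0.988 to 0.992 between these lines, over probe sets. Single markers of leukocytes (Ptprc), endothelium (Pecam1) and fibroblasts (Lum) were low in all 4 lines, with line means of 4.52 to 4.70, 5.24 to 5.36 and 3.37 to 3.52. Of the measured markers, 12 of 15 for leukocytes, 9 of 12 for endothelium and 6 of 14 for fibroblasts were low in all 4 lines. Over all genes with a symbol, 8266 of 19937 were low in all 4 lines, a share near that of the fibroblast markers. The fibroblast marker Pdgfra, described below, was not low in any line. The luminal keratins Krt8 and Krt18 were among the markers that were not low in any line. Of the measured luminal markers, however, 6 of 15 were low in all 4 lines, as were 7 of 13 myoepithelial and basal markers. In a culture, fewer cells of a kind and less RNA per cell cannot be told apart.

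The first sequences shown are promoters of junction and keratin genes that were higher in ΔSAP, because they share a short motif. They are from RefSeq (GRCm38.p6), written 5′ to 3′ along the gene from 250 bases before the start to 30 after it. Capitals mark the E-box CACCTG or its reverse complement CAGGTG. Epcam lies at chr17:87635729-87636008 (plus strand), Cldn4 at chr5:134946905-134947184 (minus), Cldn6 at chr17:23679115-23679394 (plus), Ocln at chr13:100552689-100552968 (minus), Dsp at chr13:38151044-38151323 (plus) and Krt7 at chr15:101412153-101412432 (plus).
Epcam: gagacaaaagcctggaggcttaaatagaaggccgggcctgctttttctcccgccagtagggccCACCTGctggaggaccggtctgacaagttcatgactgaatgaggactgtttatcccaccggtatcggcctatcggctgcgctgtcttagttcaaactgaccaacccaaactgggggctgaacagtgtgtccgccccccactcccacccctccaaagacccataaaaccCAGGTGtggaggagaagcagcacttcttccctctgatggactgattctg
Cldn4: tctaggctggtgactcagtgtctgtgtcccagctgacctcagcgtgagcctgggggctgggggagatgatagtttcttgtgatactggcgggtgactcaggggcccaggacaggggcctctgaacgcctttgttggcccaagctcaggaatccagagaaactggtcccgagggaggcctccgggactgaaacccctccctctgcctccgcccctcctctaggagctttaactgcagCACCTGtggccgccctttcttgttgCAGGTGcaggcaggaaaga
Cldn6: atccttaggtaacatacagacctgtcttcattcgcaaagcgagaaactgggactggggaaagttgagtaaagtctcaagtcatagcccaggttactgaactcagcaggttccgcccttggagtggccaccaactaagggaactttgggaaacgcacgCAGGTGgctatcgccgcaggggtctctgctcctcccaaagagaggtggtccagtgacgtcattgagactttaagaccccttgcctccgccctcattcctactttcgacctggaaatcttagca
Ocln: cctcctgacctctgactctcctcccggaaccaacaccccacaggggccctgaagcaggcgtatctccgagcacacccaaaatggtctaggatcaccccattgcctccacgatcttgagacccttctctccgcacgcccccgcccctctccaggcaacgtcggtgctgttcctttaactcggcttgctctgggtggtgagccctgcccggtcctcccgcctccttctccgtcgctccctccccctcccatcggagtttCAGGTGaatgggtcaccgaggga
Dsp: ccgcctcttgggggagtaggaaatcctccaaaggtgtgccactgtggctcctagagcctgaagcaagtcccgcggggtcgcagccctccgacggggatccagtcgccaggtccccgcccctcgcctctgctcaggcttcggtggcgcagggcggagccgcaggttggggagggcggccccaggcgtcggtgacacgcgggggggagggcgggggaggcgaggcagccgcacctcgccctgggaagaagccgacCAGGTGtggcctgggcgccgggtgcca
Krt7: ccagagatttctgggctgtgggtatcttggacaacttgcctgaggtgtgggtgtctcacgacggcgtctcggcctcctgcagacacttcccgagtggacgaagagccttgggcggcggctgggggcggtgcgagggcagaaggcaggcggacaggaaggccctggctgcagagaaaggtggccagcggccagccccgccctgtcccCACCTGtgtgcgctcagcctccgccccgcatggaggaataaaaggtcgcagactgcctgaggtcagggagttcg

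The motif was searched on both strands in the 300 bases of each RefSeq promoter, a window that reaches 50 bases past the start. Of 34 junction and keratin genes that passed as higher in ΔSAP, 17 had a promoter in the RefSeq table, and 15 of these (88.2%) held the motif. Of 31 that did not pass, 20 had a promoter, and 9 of these (45%) held the motif. Among genes called higher it was present in 78 of 180 promoters (43.3%), and among genes called lower in 22 of 101 (21.8%). Of all 27025 promoters in the table, 6098 (22.6%) held it. The mean GC content was 62.6% in the first set, 60.2% in the junction and keratin genes that did not pass and 53.8% over all promoters. The part of base composition in these shares was not tested. The motif was chosen with the direction of these genes known, and a match describes letters in the window, not a bound site. Promoters of Esrp1, Cdh1 and Mal2 were missing from the table and so were not searched.

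The promoters of Rsad2, Ifit3 and Acta1 are shown for the interferon and Srf target groups. In Rsad2 (chr12:26456423-26456702, minus strand) and Ifit3 (chr19:34583279-34583558, plus), capitals mark the interferon-stimulated response element, searched as GAAA and GAAA with any 2 bases between them, or its reverse complement. It was present in 9 of 14 promoters (64.3%) of interferon-response genes that passed as lower in ΔSAP and in 3.99% of all promoters. Among all genes called lower it was present in 4 of 101 promoters (3.96%). Interferon-response genes that did not pass were not searched as a set, so the 64.3% cannot be tied to the direction. In Acta1 (chr8:123894746-123895025, minus), capitals mark a CArG box, the element bound by Srf. Of 6 promoters of Srf and Mrtf targets that passed as higher in ΔSAP, Acta1 alone held one within this window, beside 1.81% of all promoters. Of 5 promoters of such targets that passed as lower, 0 held one. Among all called genes a CArG box was present in 4 of 180 promoters (2.22%) of those higher and 6 of 101 (5.94%) of those lower.
Rsad2: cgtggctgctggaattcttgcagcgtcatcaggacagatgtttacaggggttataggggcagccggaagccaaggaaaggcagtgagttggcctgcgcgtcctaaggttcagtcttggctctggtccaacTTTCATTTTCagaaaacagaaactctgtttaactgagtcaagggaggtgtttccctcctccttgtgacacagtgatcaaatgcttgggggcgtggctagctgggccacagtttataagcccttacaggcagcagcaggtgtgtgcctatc
Ifit3: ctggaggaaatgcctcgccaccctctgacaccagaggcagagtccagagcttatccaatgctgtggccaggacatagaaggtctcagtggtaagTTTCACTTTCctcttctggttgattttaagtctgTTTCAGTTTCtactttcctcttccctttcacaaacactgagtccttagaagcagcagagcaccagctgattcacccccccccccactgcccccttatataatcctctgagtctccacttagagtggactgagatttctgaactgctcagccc
Acta1: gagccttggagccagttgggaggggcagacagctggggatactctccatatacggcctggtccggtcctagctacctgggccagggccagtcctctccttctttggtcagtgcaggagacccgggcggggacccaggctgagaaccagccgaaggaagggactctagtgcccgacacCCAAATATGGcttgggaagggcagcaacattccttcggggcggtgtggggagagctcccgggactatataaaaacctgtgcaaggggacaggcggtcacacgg

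With limma, 495 probe sets were called different between ΔSAP and mutB1, which is 1.42% of the 34760 tested. The call needed an adjusted p of at most 0.01 (Benjamini-Hochberg over all probe sets), a fold of at least 2 and the mean of 4. Of these, 307 (0.883% of those tested) were higher in ΔSAP and 188 (0.541%) were lower. The last called fold was 2.001 and the first outside 1.998. Above 4-fold there were 96 higher and 38 lower probe sets, and above 8-fold 26 higher and 5 lower. In all 495, the 3 ΔSAP values lay outside the range of the 3 mutB1 values. The calls came from these same arrays, so this adds no support, and the share over all probe sets was not counted. The lower of the lines was low in 164 of them, and both lines were low in 24. A single gene symbol was available for 422, and 406 genes were called by their brightest probe set, 263 higher and 143 lower in ΔSAP.

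**Figure D1:**
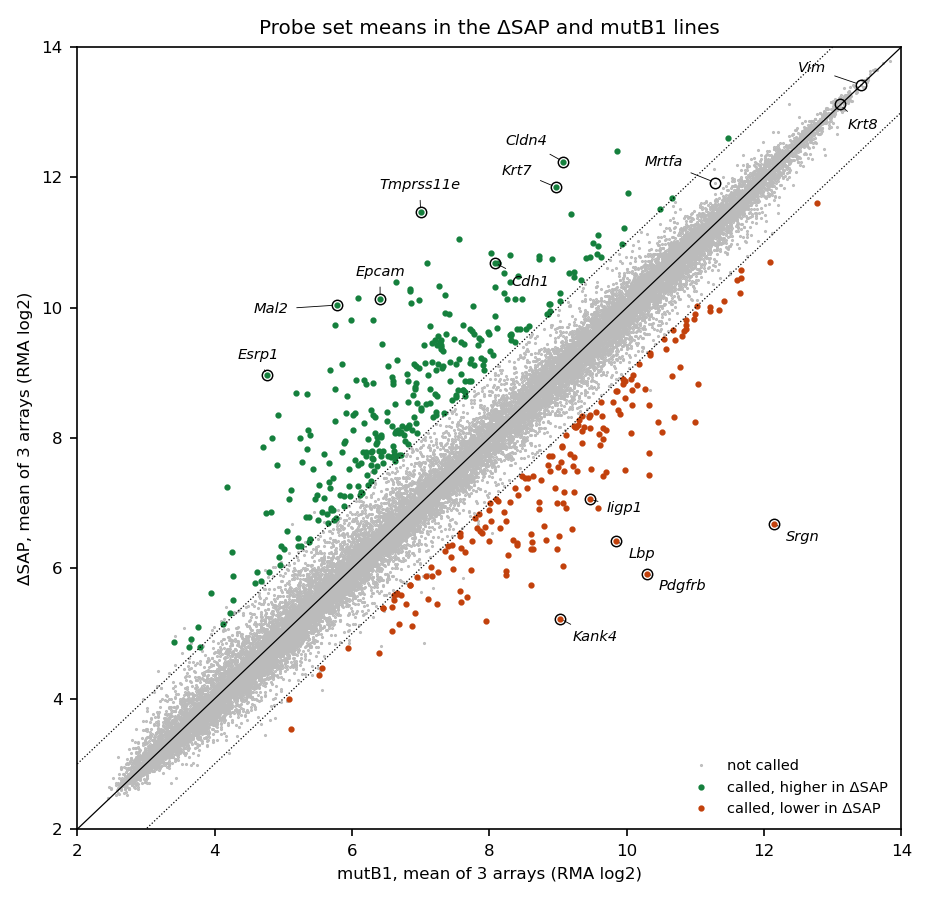
Each point is a probe set, placed by its mean RMA log2 value over 3 mutB1 arrays (horizontal) and 3 ΔSAP arrays (vertical); dotted lines mark the 2-fold limits. The 307 probe sets called higher in ΔSAP are green, the 188 called lower are orange, and Vim and Krt8 lie on the diagonal.

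The construct gene was examined first. Mrtfa (probe set 10430693) read 11.94, 11.87 and 11.95 in ΔSAP and 11.41, 11.23 and 11.22 in mutB1. The control arrays read 9.28, 9.28 and 9.26 and the FL arrays 12.06, 12.14 and 12.03. Both lines lay above control in every array, and ΔSAP lay above mutB1 by 0.63 ± 0.06 (SE; limma adjusted p = 1.73e-05). Where the probes of this set lie in the transcript, and so which constructs they can detect, is not known here. Srf differed by 0.10 ± 0.05 (adjusted p = 0.209) and the related coactivator Mrtfb by 0.10 ± 0.04 (adjusted p = 0.14) at its brightest probe set. Phactr1, an actin- and phosphatase-binding protein with RPEL motifs like those of Mkl1, fell by 1.07 ± 0.05 (adjusted p = 1.23e-07). It read 8.12, 8.13 and 8.27 in ΔSAP and 9.23, 9.24 and 9.27 in mutB1. Of 17 measured genes of the Mkl1 and Srf partner list, 3 passed as higher and 4 as lower at an adjusted p of at most 0.01 with no minimum fold. Over all 19937 genes with a symbol, 10.0% passed as higher and 11.6% as lower by that rule. The count of every list below is to be read beside these shares. The count of 4 became 2 without ΔSAP replicate 1 or without any of the mutB1 replicates, and 1 without ΔSAP replicate 2 or with the 6 arrays alone, and the 3 higher became 5 when a gene's probe sets were averaged. The other members that passed were Wwtr1 (0.33), Elk3 (0.28), Scai (-0.28), Tead2 (-0.23) and Tead1 (-0.20), each log2 difference under 0.5 in size.

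Genes of the desmosome, the junction that ties keratin filaments of neighbouring cells together, were higher in ΔSAP in 8 of 13 measured cases and lower in 0. The median difference of the 13 was 0.32, against -0.05 over all genes. Dsp, desmoplakin, which links the plaque to keratin, read 10.26, 10.35 and 10.23 in ΔSAP and 6.89, 6.87 and 6.75 in mutB1. Control read 8.96, 8.98 and 9.04 and FL 9.42, 9.34 and 9.50, so both references lay between the compared lines. The difference was 3.44 ± 0.06 (SE; limma adjusted p = 1.25e-10), a fold of 10.8. Perp, a membrane protein needed for stable desmosomes, read 10.19, 10.29 and 10.27 in ΔSAP and 6.77, 6.97 and 6.76 in mutB1. In control it read 9.34, 9.25 and 9.41 and in FL 9.38, 9.37 and 9.48, nearer to ΔSAP. The difference was 3.41 ± 0.06 (adjusted p = 2.54e-10), with a difference from control of 0.91 in ΔSAP and -2.50 in mutB1.

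Dsg2, a desmosomal cadherin, had another pattern among the lines. It read 9.08, 9.15 and 9.15 in ΔSAP and 8.98, 8.97 and 9.13 in FL, but 5.91, 5.71 and 5.91 in mutB1 and 5.88, 5.86 and 6.05 in control, both low. ΔSAP exceeded mutB1 by 3.28 ± 0.07 (adjusted p = 6.84e-10), without overlap of their arrays. The ΔSAP values overlapped those of FL, and the mutB1 values those of control. Pkp2, a plaque protein, read 9.05, 9.10 and 9.17 against 6.44, 6.74 and 6.40, a difference of 2.58 ± 0.09 (adjusted p = 1.16e-08). Smaller rises passed for Dsc2 (1.18, low in all 4 lines), Pkp3 (0.85), Ppl (0.32) and Jup (0.28). Pkp1, Evpl, Dsg3, Pkp4 and Dsc3 did not pass, with differences of -0.25 to 0.14.

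In the adherens junction and epithelial adhesion list, 4 of 13 measured genes were higher, 1 was lower, and the median was 0.09. Epcam, the epithelial cell adhesion molecule, read 10.12, 10.09 and 10.21 in ΔSAP and 6.19, 6.48 and 6.54 in mutB1. Control read 8.42, 8.42 and 8.48 and FL 8.23, 8.27 and 8.29, both between the compared lines and apart from each. Its difference of 3.74 ± 0.08 (limma adjusted p = 4.74e-10) was a 13.3-fold excess. Cdh1, E-cadherin, the core adhesion receptor of the adherens junction, read 10.68, 10.71 and 10.67 in ΔSAP and 8.09, 8.04 and 8.10 in mutB1. In control it read 9.62, 9.62 and 9.72 and in FL 10.31, 10.29 and 10.30, so the order from the top was ΔSAP, FL, control and mutB1, with no overlap between neighbours. The 6.10-fold difference was 2.61 ± 0.04 on the log2 scale (adjusted p = 5.66e-11). Shroom3, which directs apical constriction, rose by 0.92 ± 0.07 (adjusted p = 4.59e-06), and Nectin1 by 0.33. Nectin2 fell by 0.30 (adjusted p = 0.000312), a call lost with the 6 arrays alone. The catenins Ctnnb1, Ctnnd1 and Ctnna1, which couple cadherins to the cytoskeleton, did not pass, with 0.09, -0.06 and -0.15.

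Tight junction and polarity genes gave the highest share among the epithelial lists, with 18 of 25 measured genes higher and 0 lower and a median of 0.72. Mal2, a membrane raft protein of apical transport, read 10.03, 10.02 and 10.08 in ΔSAP and 5.72, 5.87 and 5.75 in mutB1. FL read 8.80, 8.84 and 8.98 and control 5.60, 5.52 and 5.77, so mutB1 stood at the control level (difference 0.15, limma adjusted p = 0.197), both low. Its excess in ΔSAP was 4.26 ± 0.07 (adjusted p = 1.28e-10). Cldn4, a claudin of the paracellular seal, read 12.23, 12.27 and 12.23 in ΔSAP and 9.03, 9.08 and 9.14 in mutB1, with control at 10.80, 10.80 and 10.85 and FL at 10.98, 10.95 and 11.03. That was a difference of 3.16 ± 0.04 (adjusted p = 2.76e-11), with the reference lines between. Cldn9 read 10.38, 10.31 and 10.47 against 6.61, 6.73 and 6.58, a difference of 3.75 ± 0.06 (adjusted p = 7.78e-11).

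Occludin and tricellulin, the tetraspan proteins of the tight junction strand, were higher in ΔSAP as well. Ocln read 9.10, 9.12 and 9.10 in ΔSAP and 7.32, 7.35 and 7.32 in mutB1, a difference of 1.78 ± 0.05 (limma adjusted p = 2.32e-09). Marveld2, tricellulin, read 8.63, 8.81 and 8.84 against 5.64, 5.92 and 5.71, a difference of 3.0 ± 0.08 (adjusted p = 2.56e-09), with mutB1 low. Cldn3 and Cldn6 each rose by 1.49, Marveld3 by 1.48, Myo5b, a motor of apical recycling, by 2.35, and Cgn, the cytoplasmic plaque protein cingulin, by 1.06. The polarity genes Pard6b, Crb3, Llgl2, Patj and Pard3 passed with 0.91, 0.74, 0.67, 0.57 and 0.19. The scaffold Tjp1 did not pass at -0.17 (adjusted p = 0.0139). Nor did Cldn1, Cldn7 and Cldn8, which were low in all 4 lines. The 0 lower became 1 with a trended, robust variance or when a gene's probe sets were averaged.

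Keratins were split. Krt7, a keratin of simple epithelia, read 11.85, 11.83 and 11.86 in ΔSAP and 9.02, 8.92 and 8.96 in mutB1. Control read 11.38, 11.32 and 11.35 and FL 11.43, 11.41 and 11.45, and mutB1 stood apart under the other 3 lines. The difference was 2.88 ± 0.04 (limma adjusted p = 2.76e-11). Krt19 read 8.87, 8.83 and 8.97 against 6.13, 6.32 and 6.09, a difference of 2.71 ± 0.07 (adjusted p = 1.22e-09), with mutB1 low. Krt17 rose by 0.72 and Krt80 by 0.18, while Krt23 was lower at -0.59 (adjusted p = 0.00622), a call lost when any of the 6 arrays was left out. Krt8 and Krt18, the keratin pair of simple epithelia, differed by 0.02 and 0.08 (adjusted p = 0.678 and 0.167). Krt8 read 13.11, 13.13 and 13.12 in ΔSAP and 13.14, 13.08 and 13.07 in mutB1, which overlapped. In all, 4 of 16 keratins passed as higher and 1 as lower, with a median of 0.02.

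**Figure D2:**
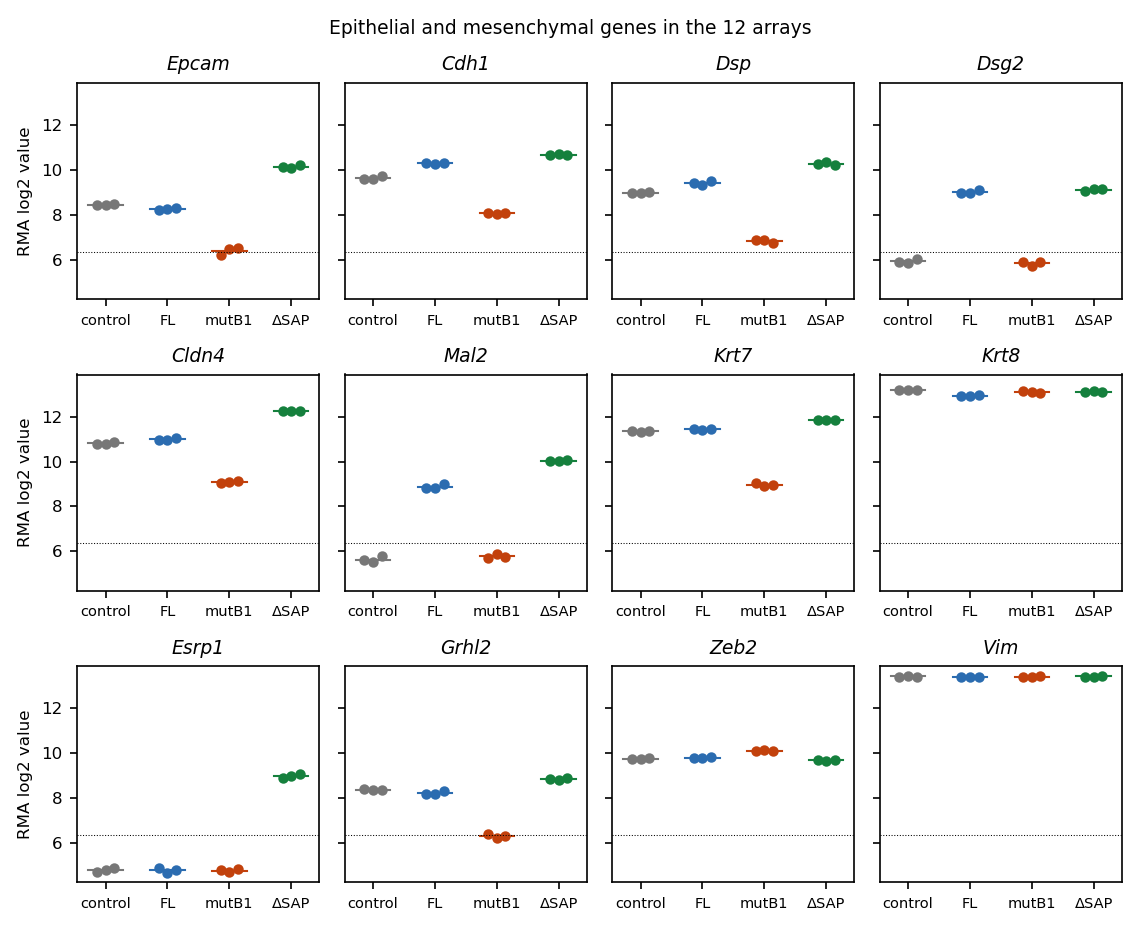
Each point is the RMA log2 value of 1 array, horizontal bars are means of 3 arrays, and the dotted line marks 6.35, under which a mean is called low. Epcam, Cdh1, Dsp, Cldn4, Krt7 and Grhl2 are highest in ΔSAP and lowest in mutB1, Esrp1 is high in ΔSAP alone, and Krt8 and Vim are level.

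Regulators of the epithelial state passed as higher in 10 of 19 measured genes and as lower in 2, with a median of 0.35. Esrp1, a splicing factor that sets epithelial isoforms, read 8.87, 8.97 and 9.05 in ΔSAP. It read 4.77, 4.69 and 4.82 in mutB1, 4.71, 4.77 and 4.86 in control and 4.86, 4.67 and 4.79 in FL, so ΔSAP stood above 3 low lines that overlapped each other. Its excess over mutB1 was 4.20 ± 0.07 (limma adjusted p = 1.14e-10). Its relative Esrp2 was present in all lines and lowest in mutB1. Esrp2 read 8.44, 8.49 and 8.46 in ΔSAP and 7.03, 7.07 and 6.91 in mutB1, a difference of 1.46 ± 0.06 (adjusted p = 3.31e-08).

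Grhl2, a transcription factor that maintains epithelial junction genes, read 8.84, 8.81 and 8.88 in ΔSAP and 6.38, 6.20 and 6.32 in mutB1. With control at 8.38, 8.36 and 8.37 and FL at 8.19, 8.16 and 8.31, the mutB1 arrays lay apart and low. The difference was 2.54 ± 0.05 (limma adjusted p = 4.74e-10). Ovol1, an epithelial zinc finger repressor, rose by 1.48 ± 0.12 and Foxa1, a luminal pioneer factor, by 1.15 ± 0.07 (adjusted p = 8.08e-06 and 1.88e-06). Klf4, Elf3, Klf5, Tfap2c and Rbm47 rose by 0.86, 0.75, 0.63, 0.61 and 0.35. Gata3, a luminal mammary factor, was lower with -0.25, as was Bcl11b with -0.21. The count of 2 lower genes became 1 in 8 of 12 refits: without ΔSAP replicate 2, ΔSAP replicate 3, mutB1 replicate 2 or mutB1 replicate 3, with the replicate number as a block, with the 6 arrays alone, with arrays centred on their medians and with a trended, robust variance.

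Surface proteases of epithelia held the largest single rise. Tmprss11e, a type II transmembrane serine protease, read 11.46, 11.51 and 11.42 in ΔSAP and 7.09, 6.96 and 6.95 in mutB1. FL read 10.16, 10.08 and 10.16 and control 7.90, 7.58 and 7.63, giving the order ΔSAP, FL, control and mutB1 without overlap. The difference of 4.47 ± 0.08 (limma adjusted p = 1.6e-10) was a 22.2-fold excess. Prss22 rose by 3.21, St14, the protease matriptase, by 2.81, and the kallikreins Klk8 and Klk10 by 2.10 and 1.87. Of 15 measured genes, 8 were higher and 0 lower, with a median of 0.24.

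The ΔSAP line had the highest and mutB1 the lowest of the 4 line means in 14 of 25 tight junction genes, 6 of 13 adherens junction genes, 5 of 13 desmosome genes, 6 of 19 epithelial regulators and 2 of 16 keratins. Over all named genes this order occurred in 1186 of 19937 (5.95%). Where a list had 0 genes in a direction by the adjusted p, the count by an unadjusted limma p under 0.05 was 2 lower for desmosome genes, 1 lower for tight junction genes, 0 lower for surface proteases, and, for lists described further on, 1 higher for interferon genes and 3 higher for mitosis genes.

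The mesenchymal transition list had 5 of 24 measured genes higher and 5 lower, with a median of -0.02. Vim, the mesenchymal intermediate filament vimentin, read 13.41, 13.41 and 13.44 in ΔSAP and 13.40, 13.40 and 13.43 in mutB1. Those values overlapped, with a difference of 0.01 ± 0.03 (limma adjusted p = 0.865). Zeb1, an E-box repressor of junction genes, was low in both lines and differed by -0.03 (adjusted p = 0.849). Its relative Zeb2 read 9.68, 9.66 and 9.68 in ΔSAP and 10.07, 10.13 and 10.07 in mutB1, without overlap, and fell by 0.41 ± 0.03 (adjusted p = 7.36e-06). Snai1, the repressor Snail, fell by 0.35 ± 0.05 (adjusted p = 0.00034), from 10.23, 10.18 and 10.15 in mutB1 to 9.90, 9.76 and 9.84 in ΔSAP. Itgb3, the beta-3 integrin, fell by 1.02, the ligand Tgfb2 fell by 0.76 and the matricellular protein Sparc fell by 0.55.

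Some mesenchymal members were higher in ΔSAP. Foxc2, a forkhead factor, read 10.18, 10.23 and 10.18 against 9.39, 9.38 and 9.40 and rose by 0.81 ± 0.07 (limma adjusted p = 1.05e-05). Twist1, a basic helix-loop-helix factor, read 9.35, 9.34 and 9.39 against 8.90, 8.95 and 8.93 and rose by 0.43 ± 0.04 (adjusted p = 4.8e-05). S100a4, Msn and Fn1 passed with 0.20, 0.18 and 0.16. The count of 5 higher genes became 3 without ΔSAP replicate 1, ΔSAP replicate 2 or mutB1 replicate 1, and 2 without ΔSAP replicate 3 or mutB1 replicate 3. With each array centred on its median, or with the 6 arrays alone, it was 2. Snai2, Cdh2, Prrx1 and Cdh11 were low in all 4 lines, and none passed. The probe sets for the hairpin genes Mir141, Mir200a, Mir200b and Mir200c, known as antagonists of the Zeb factors, were low in all lines, and none passed in limma (adjusted p = 0.113 to 0.42).

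The largest single difference in either direction was a proteoglycan. Srgn, serglycin, the core protein of secretory granules, read 12.23, 12.08 and 12.11 in mutB1 and 6.57, 6.69 and 6.76 in ΔSAP. Control read 7.26, 7.23 and 7.23 and FL 7.97, 8.15 and 8.38, so the mutB1 arrays lay far above the other 3 lines. In ΔSAP it fell by 5.47 ± 0.09 (limma adjusted p = 1.5e-10), a 44.2-fold lower level. Gpc4, a glypican that binds growth factors at the cell surface, read 9.55, 9.61 and 9.58 in mutB1 and 6.80, 6.82 and 7.12 in ΔSAP, with control at 5.56, 5.58 and 5.50. ΔSAP fell by 2.67 ± 0.08 from mutB1 (adjusted p = 5.43e-09) but lay 1.37 above control. Sdc3, Sulf2 and Sdc4 changed by -0.56, -0.54 and -0.48, and Sdc1, syndecan-1, rose by 0.31. Of 20 measured proteoglycan genes, 5 were lower and 1 higher, with a median of -0.14.

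Both PDGF receptors and 3 of 4 measured PDGF ligands were lower in ΔSAP, and 2 of 4 ErbB receptors were higher. Pdgfrb, the beta receptor for platelet-derived growth factor, read 10.22, 10.33 and 10.32 in mutB1 and 6.10, 5.76 and 5.91 in ΔSAP. With control at 6.97, 6.63 and 6.93 and FL at 6.32, 6.34 and 6.34, mutB1 alone stood high. The difference was -4.37 ± 0.10 (limma adjusted p = 7.01e-10), or 20.7-fold as measured against a low line. Pdgfra, the alpha receptor, read 10.82, 10.88 and 10.92 in mutB1 and 9.70, 9.80 and 9.72 in ΔSAP, with control at 10.76, 10.69 and 10.85 and FL at 9.37, 9.29 and 9.49. Here mutB1 stayed near control, and ΔSAP fell by 1.13 ± 0.06 (adjusted p = 4.64e-07). The ligand genes Pdgfa, Pdgfc and Pdgfb changed by -1.20, -0.56 and -0.30. Erbb3, a receptor for neuregulins, read 8.78, 8.99 and 8.91 in ΔSAP and 5.98, 6.14 and 6.07 in mutB1, which was low. It rose by 2.83 ± 0.08 (adjusted p = 3.19e-09), while its partner Erbb2 rose by 0.26 and the ligand Nrg1 fell by 0.28. The receptors Egfr (-0.13) and Erbb4 (-0.21, low in all lines) and the ligand Pdgfd (0.02, low in all lines) did not pass. The ErbB ligands Epgn (low in all lines), Btc and Hbegf rose by 0.90, 0.58 and 0.49, and the receptor-like Pdgfrl fell by 0.96. The combined list had 5 of 18 measured genes higher and 7 lower, with a median of -0.12.

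Laminin genes moved in opposite directions. Lama4, a laminin chain of vessels and mesenchyme, read 8.02, 7.94 and 7.88 in mutB1 and 5.24, 5.10 and 5.23 in ΔSAP. Control and FL read 5.02, 5.11 and 4.96 and 5.0, 5.0 and 4.80, low like ΔSAP. Its difference was -2.76 ± 0.07 (limma adjusted p = 1.76e-09). Lamb3 and Lama3, chains of the epithelial laminin-332, rose by 1.56 ± 0.06 and 0.88 ± 0.09 (adjusted p = 3.81e-08 and 4.07e-05). Itgb4, the integrin chain that binds this laminin in hemidesmosomes, read 10.50, 10.58 and 10.57 against 9.20, 9.19 and 9.29 and rose by 1.32 ± 0.05 (adjusted p = 2.89e-08). Of 19 basement membrane genes, 3 were higher (15.8%) and 2 lower (10.5%), with a median of -0.02. These shares were near the 10.0% and 11.6% over all genes.

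In the interstitial and matricellular list, 5 of 28 measured genes were higher and 7 lower, with a median of -0.12. Tnc, tenascin-C, read 7.47, 7.82 and 7.81 in ΔSAP and 6.23, 6.32 and 6.33 in mutB1, and rose by 1.40 ± 0.12 (limma adjusted p = 1.11e-05). FL read 7.54, 7.81 and 7.93, overlapping ΔSAP, and control 5.83, 5.72 and 5.94, below mutB1. Ccn4 fell by 1.79 ± 0.07, Ccn5 fell by 1.57 ± 0.07 and Fbln1 fell by 1.53 ± 0.05 (adjusted p = 2.34e-08, 1.04e-07 and 5.2e-09). Ccn4 and Ccn5 belong to the CCN family of matricellular proteins, and Fbln1 encodes fibulin-1. Fbln1 read 9.62, 9.55 and 9.62 in mutB1 and 8.07, 8.09 and 8.03 in ΔSAP, with control at 6.94, 7.0 and 7.04, so both lines exceeded control. Cemip, which degrades hyaluronan, was not a member of this list. It read 9.24, 9.06 and 8.94 in mutB1 and 5.93, 6.05 and 6.11 in ΔSAP, a difference of -3.05 ± 0.08 (adjusted p = 1.51e-09). Col1a1, Col1a2 and Col3a1, the main fibrillar collagens, did not pass, with -0.13, -0.12 and 0.01.

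Of 14 measured fibroblast markers, 4 were lower in ΔSAP, 1 was higher (Postn, low in all lines) and 9 did not pass, with a median of -0.14. The lower ones were Pi16 and 3 genes already described, Pdgfrb, Pdgfra and Fbln1. The summed linear signal of the 14 was 4494 to 4742 per array in mutB1 and 1743 to 1839 in ΔSAP, against 2551 to 2788 in control and 1587 to 1736 in FL. Of it, Pdgfrb, Pdgfra and Fbln1 gave 3784 to 3995 in mutB1 and 1167 to 1216 in ΔSAP, and the other 11 genes 701 to 747 and 577 to 667. Lum, Dcn, Thy1 and Fap were among the members that did not pass, and Lum read 3.42 and 3.47 on average in mutB1 and ΔSAP. The endothelial sum was 4446 to 4512 in mutB1 and 3230 to 3275 in ΔSAP, and 3 of 12 genes were lower (Plvap, Eng and Egfl7). Leukocyte sums overlapped, at 958 to 1096 in mutB1 and 1080 to 1135 in ΔSAP, while S100a8 fell by 2.10 and Cd68 rose by 0.80. Myoepithelial sums were 4252 to 4401 in mutB1 and 4970 to 5400 in ΔSAP. Control gave 4791 to 4941 and FL 4427 to 4682. Luminal sums were 21862 to 22731 in mutB1 and 23651 to 24404 in ΔSAP. In control they were 23236 to 23502 and in FL 19538 to 20203, so FL and not mutB1 had the lowest luminal sums. The part of other cell types in these results was not tested.

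Proteins that link integrins to actin included a large rise and a large fall. Fermt1, the epithelial integrin activator kindlin-1, read 10.58, 10.75 and 10.71 in ΔSAP and 7.10, 7.09 and 7.08 in mutB1. FL read 9.10, 9.15 and 9.09 and control 5.44, 5.57 and 5.58, so mutB1 lay above a low control here. The rise was 3.59 ± 0.05 (limma adjusted p = 7.32e-11). Tns1, tensin-1 of mature adhesions, read 10.66, 10.70 and 10.72 in mutB1 and 8.29, 8.39 and 8.28 in ΔSAP, with control at 10.44, 10.44 and 10.51 and FL at 8.24, 8.07 and 8.38. It fell by 2.37 ± 0.07 (adjusted p = 4.78e-09), and 4 of its 5 other probe sets passed as lower. Itgb7 rose by 1.36, Itga2 by 0.80 and Cav1, caveolin-1, by 0.78, whereas the adhesion protein Zyx fell by 0.55. Of 27 measured genes, 10 were higher and 8 lower, with a median of 0.00.

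Srf and Mrtf cytoskeletal targets were mixed, with 7 of 36 measured genes higher (19.4%), 5 lower (13.9%) and a median of 0.03. Over all genes the shares were 10.0% and 11.6%. Tpm2, beta-tropomyosin, read 6.62, 6.97 and 7.03 in ΔSAP and 5.63, 5.64 and 5.44 in mutB1, which was low. It rose by 1.30 ± 0.10 (limma adjusted p = 7.08e-06). The muscle-type actins Actg2, Acta2 and Acta1 rose by 1.04 ± 0.08, 0.72 ± 0.06 and 0.57 ± 0.09 (adjusted p = 8.74e-06, 9.27e-06 and 0.00117). Actg2 and Acta2 were low in mutB1. Acta1 read 7.36, 7.72 and 7.62 in ΔSAP and 7.0, 6.97 and 7.01 in mutB1, with control at 7.07, 6.96 and 7.12. Synpo2, an actin-bundling partner of alpha-actinin, read 8.72, 8.57 and 8.51 in mutB1 and 5.81, 5.87 and 5.53 in ΔSAP. Control read 7.88, 7.87 and 7.90 and FL 5.67, 6.14 and 6.0, placing FL beside ΔSAP. Its difference was -2.86 ± 0.12 (adjusted p = 6.9e-08). Cald1, caldesmon, fell by 0.59, and the myosin heavy chains Myh10 and Myh9 changed by -0.28 and -0.26. The 5 lower genes became 2 without ΔSAP replicate 1, ΔSAP replicate 3, mutB1 replicate 2 or mutB1 replicate 3, and 3 without ΔSAP replicate 2 or with each array centred on its median. In a fit of the 6 arrays alone 4 genes were higher and 2 lower, and with a trended, robust variance 11 were higher.

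Immediate early and ERK feedback genes gave 11 of 30 higher and 11 lower, with a median of 0.07. AP-1 members were among those higher in ΔSAP, with Jund at 0.64 ± 0.06, Fosb at 0.51 ± 0.05, Fosl1 at 0.40, Junb at 0.38 and Jun at 0.35. Dusp5, a phosphatase of ERK, rose by 0.67 (limma adjusted p = 5.25e-05). Among those lower were the zinc finger factors Egr2 and Egr1, which changed by -0.94 and -0.43, and the nuclear receptor Nr4a1, which fell by 0.70. The ERK inhibitors Spry1, Spry4, Spry2, Spred1 and Spred2 changed by -0.73, -0.37, -0.28, -0.37 and -0.37. Egr2 read 9.77, 9.73 and 9.73 in mutB1 and 8.76, 8.77 and 8.87 in ΔSAP, without overlap. The 11 higher genes became 7 without ΔSAP replicate 3 or with the 6 arrays alone.

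Interferon-response genes were lower in ΔSAP in 17 of 27 measured cases and higher in 0, with a median of -0.39. Iigp1, an interferon-inducible GTPase, read 9.52, 9.59 and 9.26 in mutB1 and 6.91, 7.20 and 7.07 in ΔSAP. FL read 8.75, 8.82 and 8.90 and control 5.21, 5.03 and 5.0, which was low, so both compared lines lay above control. In ΔSAP it fell by 2.40 ± 0.10 (limma adjusted p = 6.1e-08). Mx1, an antiviral GTPase, read 8.89, 8.76 and 8.50 in mutB1 and 6.86, 6.81 and 7.07 in ΔSAP, with control at 5.01, 5.07 and 4.79 and FL at 8.84, 8.97 and 8.82. Its difference was -1.81 ± 0.11 (adjusted p = 1.15e-06). Rsad2 and Ifit3, whose promoters hold the response element, changed by -0.46 ± 0.06 and -0.54 ± 0.07 (adjusted p = 0.000248 and 0.000386). Rsad2 read 11.11, 11.08 and 10.96 in mutB1 and 10.61, 10.59 and 10.59 in ΔSAP, against 8.0, 7.80 and 7.80 in control. The median change of the 27 from control was 1.82 in ΔSAP and 2.12 in mutB1, values that share the control arrays.

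Genes of class I peptide processing were lower too. The immunoproteasome genes Psmb9, Psmb10 and Psmb8 changed by -1.02, -0.90 and -0.70, and the peptide transporter Tap1 fell by 0.71 ± 0.05 (limma adjusted p = 3.27e-06). Tap1 read 10.47, 10.41 and 10.31 in mutB1 and 9.68, 9.68 and 9.69 in ΔSAP, with control at 8.40, 8.55 and 8.46. Cd74, the class II invariant chain, rose by 1.13 ± 0.08 (adjusted p = 4.57e-06), with mutB1 low. In this list 8 of 17 measured genes were lower and 2 higher, with a median of -0.19. The 8 became 5 in a fit of the 6 arrays alone.

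Cytokine and NF-kB target genes separated into individual rises and falls, 10 of 35 higher and 12 lower, with a median of -0.02. Il1a, interleukin-1 alpha, read 8.60, 8.68 and 8.77 in ΔSAP and 5.56, 5.39 and 5.06 in mutB1. FL read 8.44, 8.38 and 8.59, next to ΔSAP, and control 4.88, 4.79 and 4.68, so mutB1 and control were low. The rise was 3.35 ± 0.12 (limma adjusted p = 1.55e-08). Csf3, granulocyte colony-stimulating factor, read 9.61, 9.60 and 9.59 against 7.80, 7.79 and 7.72, a rise of 1.83 ± 0.04 (adjusted p = 8.32e-10). Lbp, lipopolysaccharide-binding protein, read 9.76, 9.81 and 9.96 in mutB1 and 6.33, 6.65 and 6.27 in ΔSAP, with control at 10.57, 10.65 and 10.57 and FL at 6.76, 6.50 and 6.97. It fell by 3.42 ± 0.12 (adjusted p = 2.22e-08). Il33, Vcam1, Lcn2 and Ccl2 changed by -1.35, -1.32, -1.16 and -1.09. The 12 lower genes became 6 in a fit of the 6 arrays alone.

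Extracellular proteases were mixed, with 10 of 27 higher and 6 lower. Mmp9, gelatinase B, read 12.10, 12.12 and 12.06 in mutB1 and 10.62, 10.76 and 10.72 in ΔSAP, with control at 10.79, 10.78 and 10.77, and fell by 1.39 ± 0.04 (limma adjusted p = 6.3e-09). Adamts9 and Mmp19 changed by -2.21 and -1.78. Adamts1, Cpm and Mmp10, or stromelysin-2, rose by 1.19, 1.19 and 1.06.

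Of 35 measured genes of mitosis and DNA replication, 14 were lower in ΔSAP and 0 higher, with a median of -0.15. All of these differences were under 1 in size. Aurka, the mitotic kinase Aurora A, read 11.19, 11.10 and 11.13 in mutB1 and 10.56, 10.60 and 10.55 in ΔSAP, with control at 10.77, 10.72 and 10.71. It fell by 0.57 ± 0.04 (limma adjusted p = 2.38e-06). Ccne1, cyclin E1, fell by 0.51, and Mcm2, a subunit of the replicative helicase, fell by 0.41. In a fit of the 6 arrays alone the 14 became 6. Ccnd2, cyclin D2, from the list of G1 entry and p53 targets, read 8.89, 9.17 and 9.15 in ΔSAP and 7.34, 7.25 and 7.34 in mutB1. It rose by 1.76 ± 0.09 (adjusted p = 2.33e-07), with mutB1 at the control level of 7.18, 7.40 and 7.47. That list had 6 of 22 higher and 3 lower.

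Among 26 genes of glycolysis and hypoxia, 7 were higher and 8 lower, with a median of -0.02. Car9, a carbonic anhydrase of the cell surface, read 8.80, 8.81 and 8.89 in ΔSAP and 6.30, 6.18 and 6.13 in mutB1. It rose by 2.63 ± 0.07 (limma adjusted p = 2.85e-09), and the related Car12 by 0.82. The glycolytic and related enzymes Pfkp, Pfkfb3, Hk2 and Aldoc changed by -0.76, -0.71, -0.55 and -0.47. The 7 became 4 with the 6 arrays alone or with each array centred on its median.

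**Figure D3:**
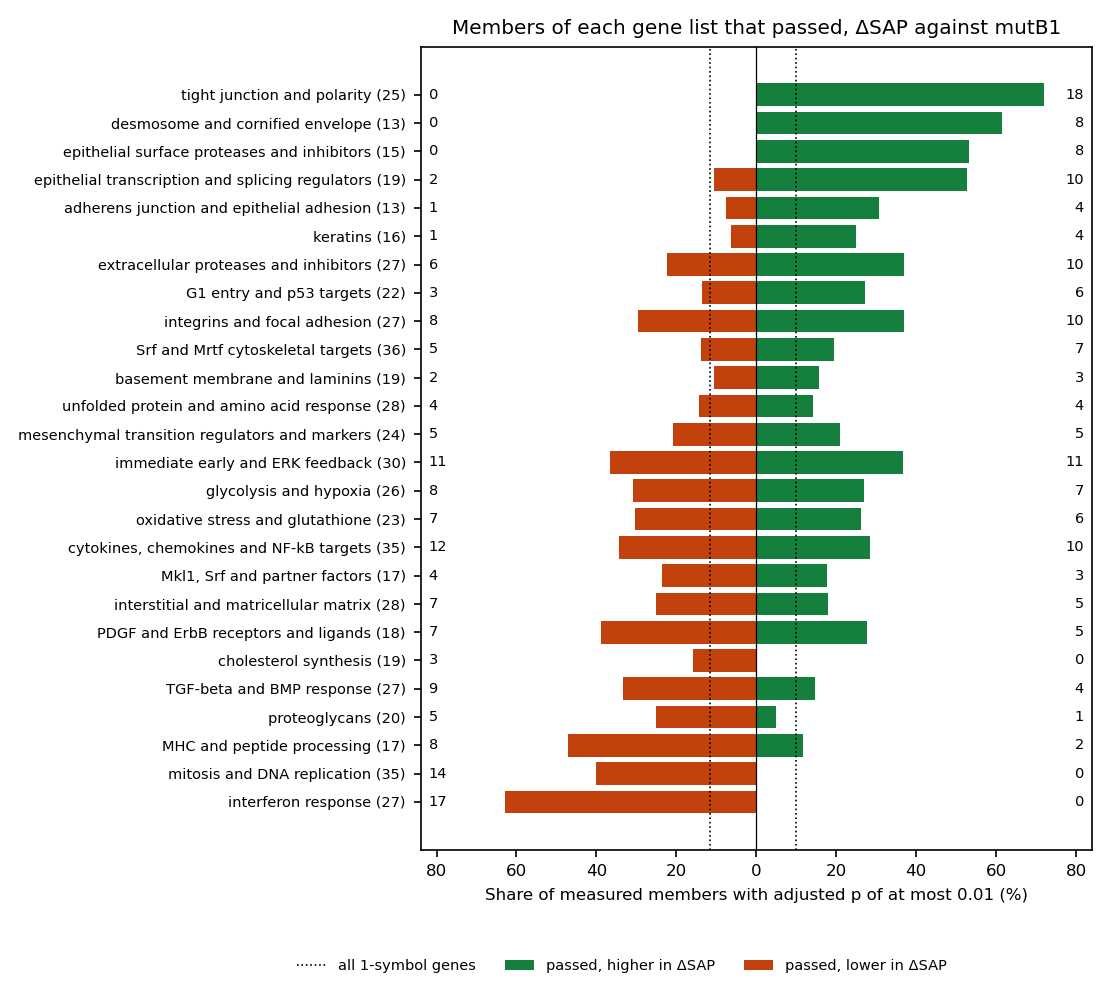
Bars give the percent of each list's measured genes (number in brackets) that passed at an adjusted p of at most 0.01, higher in ΔSAP to the right and lower to the left, with counts at the margins; dotted lines mark 10.0% and 11.6% of all genes. Tight junction genes reach 72% to the right with 0 to the left, and interferon genes 63% to the left with 0 to the right.

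Among the 15 largest rises were further genes outside these lists. Mpzl2, an immunoglobulin-domain adhesion protein of epithelia, read 9.78, 9.82 and 9.82 in ΔSAP and 5.88, 5.84 and 6.21 in mutB1, a rise of 3.83 ± 0.10 (limma adjusted p = 1.75e-09). Tmem54, Pate14, Macc1, Lncenc1 and Gca rose by 4.06, 3.97, 3.50, 3.50 and 3.42, each from a low mutB1 line. Lncenc1, a long noncoding RNA, read 9.82, 9.80 and 9.81 in ΔSAP and 10.18, 10.24 and 10.12 in FL, but 6.33, 6.27 and 6.31 in mutB1. Over all 15, adjusted p ranged from 3.49e-11 to 2.42e-08, and the mutB1 line was low in 9.

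Falls outside the lists included Kank4, an ankyrin-repeat adaptor, which read 8.94, 9.12 and 9.02 in mutB1 and 5.25, 5.20 and 5.25 in ΔSAP. Control and FL read 5.37, 5.52 and 5.62 and 5.52, 5.62 and 5.49, low like ΔSAP, and the difference was -3.79 ± 0.07 (limma adjusted p = 2.05e-10). F5, coagulation factor V, Dusp27, Gdpd2, Galm and Gm4951 changed by -2.40, -2.59, -2.52, -2.34 and -2.33. Over the 15 largest falls, adjusted p ranged from 1.5e-10 to 1.39e-07, and the ΔSAP line was low in 7.

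The reference lines placed the called probe sets. Of 307 higher in ΔSAP, control lay between the compared lines and nearer mutB1 in 109 and nearer ΔSAP in 122. FL lay between them and nearer mutB1 in 76 and nearer ΔSAP in 154. FL exceeded ΔSAP in 64, and control fell under mutB1 in 54. Of 188 lower in ΔSAP, control lay between and was nearer mutB1 in 62 and nearer ΔSAP in 57, and FL nearer mutB1 in 24 and nearer ΔSAP in 99. FL lay below ΔSAP in 53 and control in 45. These places share the ΔSAP and mutB1 arrays with the calls and carry no test.

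Against control, 1.34% of probe sets were called in ΔSAP and 1.21% in mutB1, comparisons that share the control arrays. For a set of genes both lines were called against control in opposite directions. Epcam was 1.70 ± 0.08 above control in ΔSAP and fell by 2.03 ± 0.08 in mutB1. Cdh1 was 1.03 ± 0.04 above and fell by 1.58 ± 0.04, Dsp was 1.28 above and fell by 2.15, and Cldn4 was 1.43 above and fell by 1.74. Samd12, Lypd3, Arap2, Plag1, Mgat4a and the Notch ligand Dll4 followed the same order. A few genes had the reverse order, with mutB1 above control and ΔSAP below. Cemip fell by 1.20 in ΔSAP and stood 1.85 above control in mutB1, and F5, Gdpd2 and Galm did likewise.

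**Figure D4:**
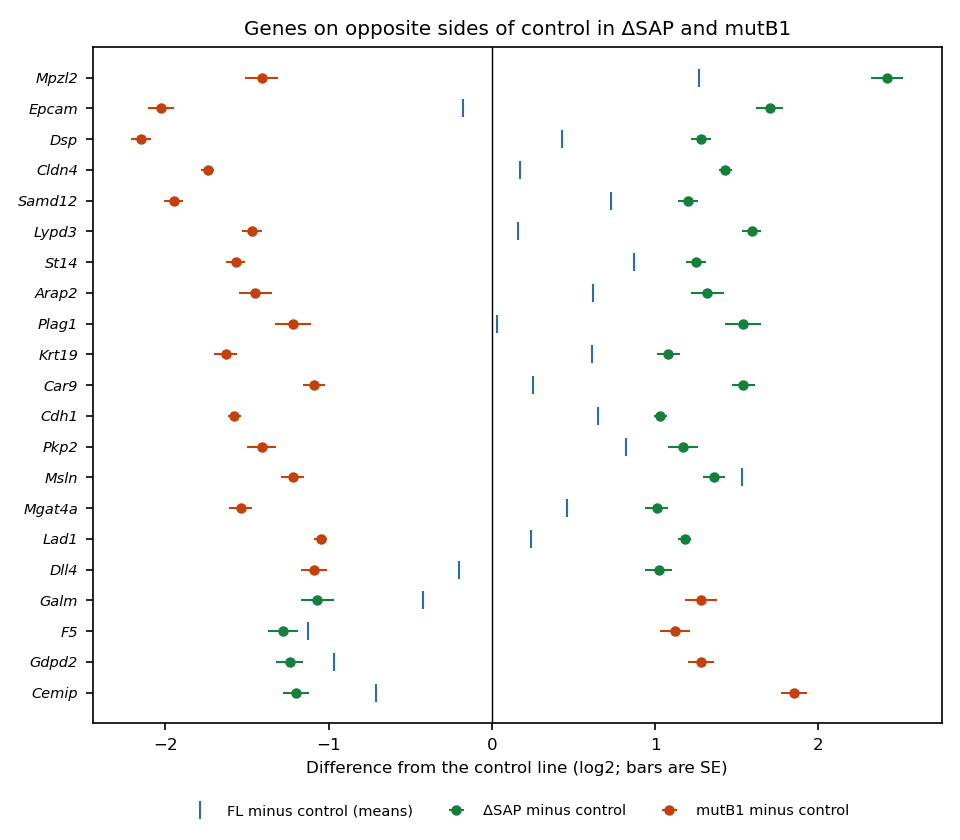
Points give the log2 difference of the ΔSAP line (green) and the mutB1 line (orange) from control with SE bars, and blue ticks that of the FL mean, for genes called in both with opposite sign. Epcam stands at 1.70 in ΔSAP and -2.03 in mutB1, and Cemip at -1.20 and 1.85.

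For other genes a single line stood apart, by a limit set after values were seen: the other 3 line means within 0.5 of each other and the line at least 1 away. Only the 406 called genes were searched, and the share over all genes was not counted. ΔSAP stood above in 13 called genes and below in 0. Esrp1 led with a gap of 4.19, followed by Pate9 (3.07), Tbc1d30 (2.03), Tlcd4 (1.72), F13a1 (1.64), the transporter Slc4a11 (1.63) and Fam83b (1.56). Tlcd4 and Fam83b averaged 6.25 and 5.89 in ΔSAP and were low in all 4 lines, and Pate9, with a ΔSAP mean of 7.25 against 3.83 (control), 3.97 (FL) and 4.18 (mutB1), met the mean of 4 only through ΔSAP. mutB1 stood above in 9, led by Kank4 (3.48), Lama4 (2.76) and the Hedgehog coreceptor Boc (1.74), and below in 35. Those below included the kinase gene Rps6ka6 (-2.64), Krt7 (-2.38), Cblc (-2.22), Tmem102 (-2.22), the adaptor Grb7 (-2.11), Padi3 (-2.03) and Kdf1 (-1.93). Rps6ka6 averaged 8.65 in ΔSAP, 8.57 in control, 8.61 in FL and 5.93 in mutB1.

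Called genes next to each other in the RefSeq order often shared a direction. Among 405 called genes of 19855 ordered genes, 24 neighbouring pairs had the same direction and 2 had opposite directions. More called genes were higher (263) than lower (143), and the number of agreeing pairs to expect from that was not computed. The pairs included Cldn6 and Cldn9, Cldn4 and Cldn3, Ocln and Marveld2, Pate9 and Pate14, and Mpzl2 and Mpzl3. The peptidylarginine deiminase genes Padi3, Padi1 and Padi2, in 1 cluster, rose by 2.26, 1.25 and 1.60. The inflammatory caspase genes Casp1, Casp4 and Casp12 changed by -1.57, -1.28 and -1.33, and the complement protease genes C1s1 and C1s2 by -2.11 and -1.54. Related neighbours can share probe sequence, which was not tested.

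Whole chromosomes were shifted slightly. Over 11319 genes the median difference of ΔSAP from mutB1 was -0.02. It was 0.17 over 397 genes of chromosome 12, 0.14 on chromosome 3, -0.17 on chromosome 2 and -0.18 on chromosomes 6 and 18. On chromosome 12, 77.3% of genes had a positive difference, against 47.2% over all. The mutB1 arrays lay between -0.19 and -0.16 there, the ΔSAP arrays between -0.01 and 0.01 and the control arrays at 0.16, as deviations from the 12-array mean. On chromosome 6 the ΔSAP arrays lay apart instead, at -0.14 to -0.12. Of the 11319 genes, 229 (2.02%) were called higher and 122 (1.08%) lower. On chromosome 12 the counts were 10 higher (2.52%) and 2 lower (0.504%), and of 540 genes on chromosome 6 they were 10 (1.85%) and 12 (2.22%). Chromosome numbers of the lines were not measured, and the part of these shifts in the calls was not tested.

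**Figure D5:**
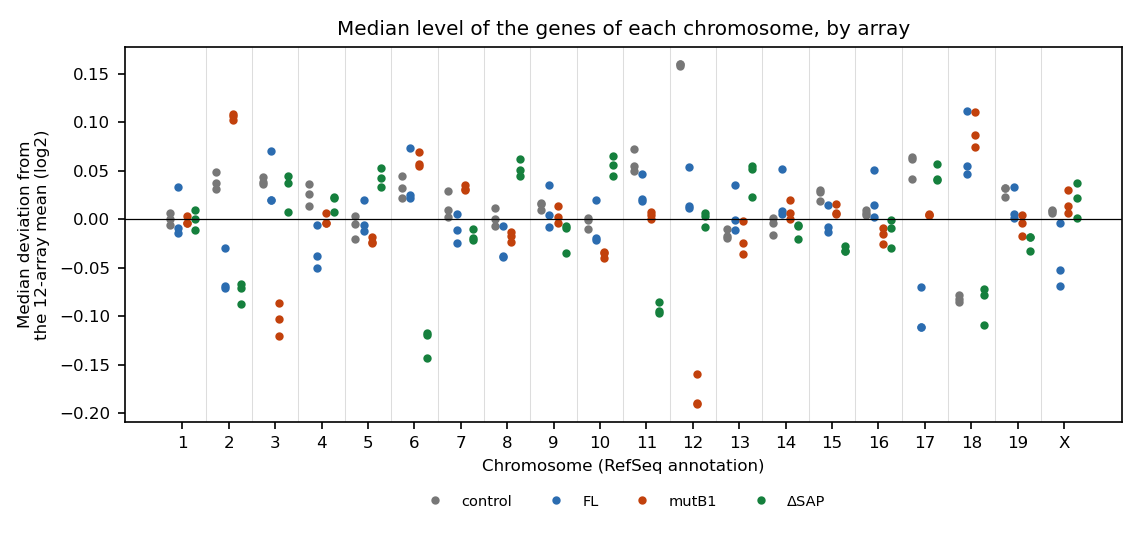
Each point is the median, over the genes of a chromosome, of 1 array's deviation from the 12-array mean (log2), coloured by line. The mutB1 arrays sit at -0.19 to -0.16 on chromosome 12 and the ΔSAP arrays at -0.14 to -0.12 on chromosome 6, with arrays of a line close together.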

How the data were processed

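RNA of 4 stable 4T1 lines, with 3 arrays each, was amplified from 100 ng of total RNA and hybridized to Affymetrix Mouse Gene arrays, per the labels. The authors deposited log2 values, 1 per probe set and array. Per the series design text they come from RMA (affy, Bioconductor 2.4), which corrects background, equalizes the distributions of arrays and summarizes probes, so a level is relative to the other arrays. R and affy are the tools in the submitters' processing notes. Scan batches, genome build and the probe set definition file were not given in the sources used here. There is no detection call in such values, and the number of arrays limits the precision.

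Differences were fitted with limma 3.58.1 in R 4.3.3 (lmFit, eBayes) over all 12 arrays and 4 line means, with Benjamini-Hochberg adjustment over 34760 probe sets. The filters of the series design text made the calls: adjusted p of at most 0.01, fold of at least 2 and mean of at least 4. Every difference is ΔSAP minus mutB1 unless another is named, and ± is the SE of the fit. The fit was tested on simulated data.

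GEO's platform annotation gave 21640 probe sets 1 symbol, 1321 several and 11799 none, and symbols were updated through RefSeq (GRCm38.p6). A gene stands by its brightest probe set with 1 symbol. Named were the 15 largest called rises and falls, up to 4 passing genes per list and direction, and the members of the junction, keratin, epithelial, mesenchymal, partner and marker lists. Further members, the pattern of 1 line apart, the opposite directions, motifs and neighbours were picked after values were seen. Members and the 32 lists were chosen with earlier results of these data known, so their counts are descriptions and no list was tested as a set. Chromosome and gene order come from RefSeq. Alternatives covered the arrays in the fit, the replicate number as a block, filters, thresholds, normalization, the variance model, the probe set of a gene and leaving out each array.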

Additional observations from a re-analysis of the deposited data

Results flagged for a closer look

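Some genes were called against control in both lines but in opposite directions. By that choice their difference between the lines had to be large, so it is given as a description and was not tested apart from it. ΔSAP lay above control and mutB1 below for Mpzl2, with a log2 difference between the lines of 3.83, Epcam (3.74), Dsp (3.44), Cldn4 (3.16), Samd12 (3.15), Lypd3 (3.05), St14 (2.81), Arap2 (2.77) and Plag1 (2.76). The same order held for Krt19 (2.71), Car9 (2.63), Cdh1 (2.61), Pkp2 (2.58), Msln (2.58), Mgat4a (2.55), Lad1 (2.23) and Dll4 (2.11). ΔSAP lay below control and mutB1 above for Cemip (-3.05), Gdpd2 (-2.52), F5 (-2.40) and Galm (-2.34). Both changes share the control arrays, so the number of such genes is not given as a result.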

How the results depend on the processing

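The 495 calls (307 higher, 188 lower) rested on the fold limit. A minimum fold of 1.5 gave 1277 (709 higher, 568 lower) and none gave 5168 (2438 higher, 2730 lower), which hold the 495. Leaving out any of the 6 arrays gave 466 to 535 calls, 288 to 325 higher and 172 to 219 lower. With the replicate number as a block there were 494 calls (304 higher, 190 lower), of which 490 were shared. Same-numbered ΔSAP and mutB1 arrays did not deviate together (r of -0.06, 0.07 and -0.14 over probe sets), so the numbers were not taken as pairs. The 6 arrays alone gave 485, median-centred arrays 492, a further quantile normalization 490 and a trended, robust variance 501. Single genes were followed in every refit except the one that averaged a gene's probe sets. None of 667 named and list genes changed sign among those that passed, and the 30 leading genes passed in each of these refits. Of the 667, 322 passed in the main fit, and 3 to 80 of them were lost per refit, most with the 6 arrays alone. In that fit the lower genes fell from 8 to 5 among integrins and from 7 to 3 among oxidative stress genes. Limits: each construct is a single line, 3 cultures per line give the spread, low signals bound no fold, and array values show relative levels only.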

Other observations

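Further lists held mostly small differences. In the TGF-beta and BMP response list, 9 of 27 measured genes were lower in ΔSAP and 4 higher, with a median of -0.13. Id1, an inhibitor of basic helix-loop-helix factors and a BMP target, read 9.97, 9.92 and 9.93 in mutB1 and 8.96, 8.85 and 8.89 in ΔSAP, with control at 9.50, 9.50 and 9.47, and fell by 1.04 ± 0.04 (limma adjusted p = 4.43e-08). The receptors Tgfbr3, Tgfbr1 and Tgfbr2 changed by -0.65, -0.56 and -0.38, and the inhibitor Smad7 fell by 0.66. The ligand Bmp7 read 7.53, 7.61 and 7.55 in ΔSAP, 6.09, 6.49 and 6.54 in mutB1 and 8.36, 8.37 and 8.40 in control. It rose by 1.20 ± 0.10 over mutB1 (limma adjusted p = 8.93e-06) but stayed under control in every array.

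Of 23 oxidative stress and glutathione genes, 7 were lower and 6 higher. Gstm1, a glutathione transferase, read 10.67, 10.67 and 10.63 in mutB1 and 8.91, 8.97 and 8.98 in ΔSAP, with control at 10.98, 11.07 and 11.04, and fell by 1.70 ± 0.05 (limma adjusted p = 4.63e-09). Hmox1, heme oxygenase, rose by 0.64. The list of stress responses to unfolded protein and amino acid shortage had 4 higher and 4 lower of 28 genes, led by Dnajb9 at 0.69 and Cth, a cysteine-producing enzyme, at -0.76. That was 14.3% in each direction, near the 10.0% higher and 11.6% lower over all genes. The 4 lower genes became 1 or 2 in 7 of 12 refits: 1 without ΔSAP replicate 1 or mutB1 replicate 2 or with the 6 arrays alone, and 2 without ΔSAP replicate 3 or mutB1 replicate 3, with the replicate number as a block and with arrays centred on their medians. The 4 higher became 9 with a trended, robust variance and 7 when a gene's probe sets were averaged. Cholesterol synthesis had 3 of 19 lower (15.8%, beside 11.6% over all genes) and 0 higher, with -0.53 for Tm7sf2, -0.41 for Pmvk and -0.31 for Ebp. By an unadjusted limma p under 0.05, 4 cholesterol genes were higher, and 1 passed as higher with a trended, robust variance or when a gene's probe sets were averaged. Of 7 adipocyte markers none passed in limma, and by the unadjusted p 1 was higher and 1 lower. In 4 of 12 refits 1 adipocyte marker passed: as higher with a further quantile normalization, and as lower without ΔSAP replicate 1, with arrays centred on their medians or when a gene's probe sets were averaged.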
